A study of Mus musculus with 3 samples.

Results

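A set of 7 stretches of mouse autosomes, each 1 Mb long in build mm9, was crowded with peaks of thyroid hormone receptor beta (TRβ): chromosome 1 from 85 to 86 Mb and from 87 to 88 Mb, chromosome 5 from 14 to 15 Mb and from 15 to 16 Mb, chromosome 8 from 19 to 20 Mb, chromosome 9 from 3 to 4 Mb, and chromosome 11 from 3 to 4 Mb. These 7 bins were chosen by their number of TRβ peaks, so that number describes the choice and is no finding. A peak of any of the 3 deposited lists was counted in a bin when its start lay there. By this rule the bins held 384 of the 24389 peaks of the series: 243 of 10021 TRβ peaks, 82 of 7174 peaks of thyroid hormone receptor alpha (TRα) and 59 of 7194 peaks of the retinoid X receptor (RXR).

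The lists came from C17.2, a mouse neural progenitor line, untreated and kept without serum before fixation, with 1 library per group. C17.2a cells stably expressed TRα, and C17.2b cells TRβ, each with a protein G tag by which IgG beads captured the receptor and its DNA, a procedure called chromatin affinity purification (ChAP). The RXR library was made from C17.2a as well, by immunoprecipitation with an antibody labelled pan-RXR on beads of protein A. The labels do not say whether a line was a single clone, and line, receptor and library could not be told apart for TRβ, since C17.2b gave only that library.

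Thyroid hormone receptors are nuclear receptors that sit on DNA with and without hormone, mostly as partners of RXR, which is shared by many nuclear receptors. A site bound by such a pair would carry tags of both partners. In any precipitation, DNA that is present in more copies in the cells than in the assembly also gathers tags, whichever protein was pulled down, and an input library is the usual way to see this. The peak caller was run here without a control library. Copy number and repeat content of the 7 bins were therefore not measured, and their part in the results below was not tested.

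Each list gives for a peak its tags, that is the number of sequenced reads in it; a score, a scaled −log10 of the caller's p-value that is higher for smaller p; and a fold enrichment, the tags relative to the number that the caller expected at that place. Without a control library that expected number came from the same library, so crowded peaks may raise it and lower each other's fold. How far they did so was not tested. To set libraries side by side, tags were scaled to a depth of 1000000 unique tags, as the headers count these, and are called scaled tags. The libraries held 16556350 unique tags for TRβ, 19786966 for TRα and 16033622 for RXR. Unique tags were 83.4% of all tags for TRβ, against 97.7% for TRα and 96.3% for RXR. The caller had modelled a shift distance of 56 bp for TRβ, 139 bp for TRα and 174 bp for RXR, and the length of a called peak depends on this setting. No library had a replicate, so no test between lists was made, and all intervals are exact 95% intervals for counting error only.

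The TRβ peaks of the 7 bins numbered 35 and 18 on chromosome 1, 23 and 31 on chromosome 5, 75 on chromosome 8, 46 on chromosome 9 and 15 on chromosome 11. Over the 2383 autosomal 1 Mb bins with a peak of any list, the median was 4 TRβ peaks. Outside the choice stood chromosome 12 from 75 to 76 Mb, with 16 TRβ peaks but 2 TRα and 2 RXR peaks, and 4 bins with 14 TRβ peaks each. One of these 4, chromosome 10 from 80 to 81 Mb, held 11 TRα and 10 RXR peaks, about as many as the chosen bins. The chromosome 12 bin held more TRβ peaks than the chosen chromosome 11 bin. The choice thus did not follow the TRβ count alone, and what else it used is not known.

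TRα and RXR counts were also high in most of the 7 bins, though whether the choice used them is not known. TRα had 12 and 8 peaks in the bins of chromosome 1, 11 and 15 in those of chromosome 5, 17 on chromosome 8, 14 on chromosome 9 and 5 on chromosome 11. That is 11.7 TRα peaks per bin, against 2.9 over the 2383 bins, and the chromosome 8 bin had the highest TRα count of any autosomal bin. RXR had 5 and 10, 7 and 11, 14, 10 and 2 peaks in the same order, or 8.43 per bin against 2.92. Counts were lower in some bins: the 5 TRα and 2 RXR peaks of the chromosome 11 bin ranked 336 and 1146 among the bins, and the 5 RXR peaks of the first chromosome 1 bin ranked 329.

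**Figure D1:**
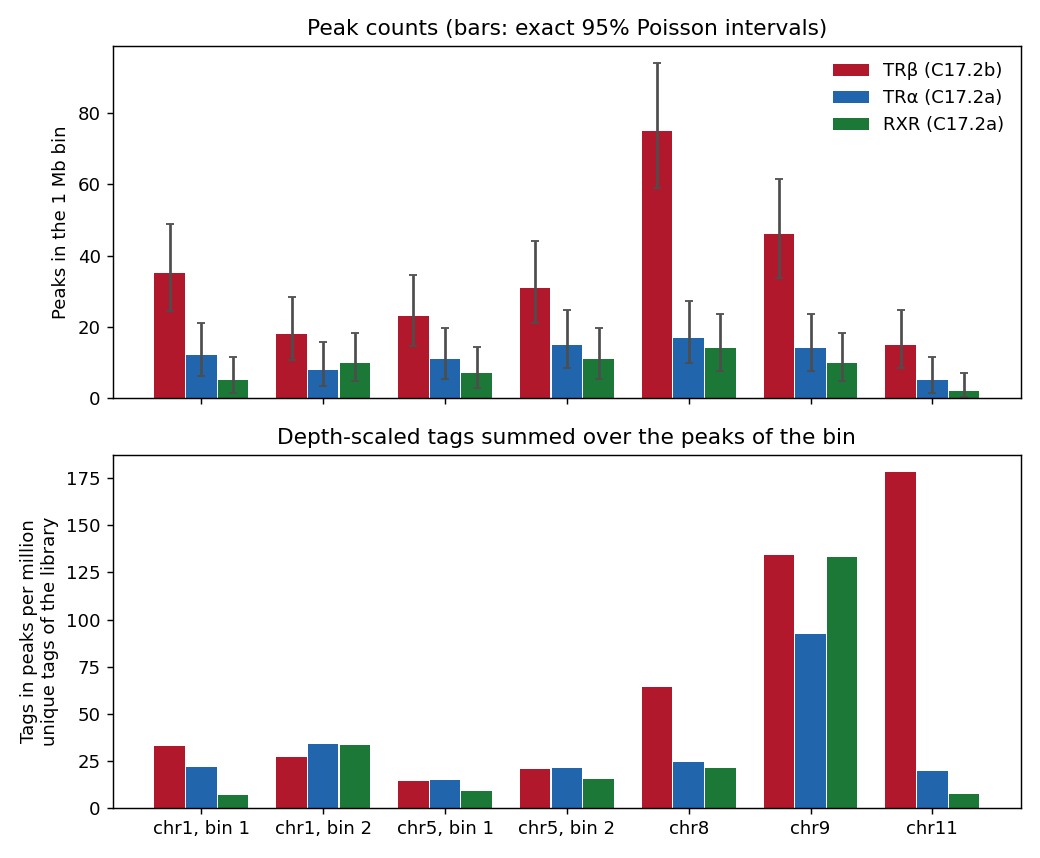
Peaks per bin (upper panel, with exact 95% Poisson intervals) and scaled tags in those peaks, per 1000000 unique tags (lower panel) for TRβ, TRα and RXR in each of the 7 bins; the bins of chromosomes 1 and 5 are numbered in genome order. TRβ has the most peaks in every bin, with 75 on chromosome 8. Its summed tags stand furthest above both other lists on chromosome 11, at 178.36 against 19.6 for TRα and 7.36 for RXR. The RXR sum there would be 48.3 with the RXR peak that begins just before 3 Mb.

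Relative to TRα, TRβ had 2.96 times as many peaks in the 7 bins (95% interval 2.3 to 3.85), against 1.4 over the whole lists. Relative to RXR the ratio was 4.12 (3.09 to 5.57), against 1.39. Both ratios contain the TRβ counts by which the bins were selected. Peaks of the same list less than 1 kb apart were then joined, whether they were 1 site or several. This left 167 blocks for TRβ, 81 for TRα and 57 for RXR. The ratios were 2.06 and 2.93, against 1.36 and 1.34 over the whole lists joined in the same way. Joined blocks held 1.46 TRβ peaks on average in the bins, against 1.04 over the whole TRβ list.

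The flanking 1 Mb bins each held fewer TRβ peaks than any chosen bin. The bin between the pair on chromosome 1, from 86 to 87 Mb, held no peak of any list, and the other flanking bins held up to 7 TRβ, 5 TRα and 6 RXR peaks. Within the bins the TRβ peaks were packed further. The shortest stretch with at least 80% of a bin's TRβ peaks measured 235.03 kb and 140.16 kb on chromosome 1, 68.3 kb and 184.85 kb on chromosome 5, 239.19 kb on chromosome 8, 35.3 kb on chromosome 9 and 99.02 kb on chromosome 11. Together these 7 stretches covered 1002 kb, or 14.3% of the bins, and held 196 of the 243 TRβ peaks (80.7%, a share that their definition sets). They also held 58 of 82 TRα peaks (70.7%) and 41 of 59 RXR peaks (69.5%), which their definition did not use.

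The stretches of chromosomes 9 and 11 began where the sequenced part of these chromosomes begins in mm9, at about 3 Mb. In the first 100 kb of sequence chromosome 9 held 39 TRβ, 12 TRα and 9 RXR peaks, and chromosome 11 held 13, 1 and 1. The other 17 autosomes together held 19 TRβ, 6 TRα and 5 RXR peaks in their first 100 kb, at most 9 TRβ peaks on any of them. In the other lists, 3 strong peaks began a few bases before 3 Mb, so that the start rule left them out: a TRα peak on chromosome 9 from 2999926 to 3001216 (297 tags), an RXR peak on chromosome 9 from 2999863 to 3001587 (419 tags), and an RXR peak on chromosome 11 from 2999965 to 3004897 (656 tags). Sums of tags that include or leave out these peaks are given side by side below.

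On chromosome 9, 9 of 28 sites held peaks of all 3 lists, after overlapping peaks were joined (32.1%, against 7.41% of sites in the series). Another 12 held TRβ peaks alone (42.9%, close to the 41.8% of the series). Of the 46 TRβ peaks of this bin, 30 met a TRα peak and 31 an RXR peak. The highest-scoring TRβ peak of all bins, from 3000001 to 3000291, had 182 tags, a score of 1123.75 and a fold of 21.69, and ranked 9 among all TRβ peaks. It lay under the TRα peak (fold 13.54, rank 11) and the RXR peak (fold 9.23, rank 13) that begin just before 3 Mb. The highest-scoring TRα and RXR members lay together too: the TRα peak from 3035609 to 3036696 with 291 tags and the RXR peak from 3035573 to 3036733 with 372 tags, over a pair of TRβ peaks with 304 tags. This site held 18.4 scaled tags for TRβ, 14.7 for TRα and 23.2 for RXR.

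A single broad TRα or RXR peak on chromosome 9 often spanned a row of short TRβ peaks. The TRα peak from 3025197 to 3027912 was 2716 bp long and held 569 tags (28.8 scaled tags), and the RXR peak from 3025156 to 3027948 held 677 tags (42.2 scaled tags). Under them lay 7 TRβ peaks, with 497 tags (30.02 scaled tags) in 1223 bp. The scaled tags of TRβ and TRα were thus close, while the peak counts were 7 and 1. Over all bins, 16 of the 55 TRα peaks that met a TRβ peak met 2 or more of them (29.1%, against 6.24% over the list), and so did 11 of 43 RXR peaks (25.6%, against 6.81%).

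**Figure D2:**
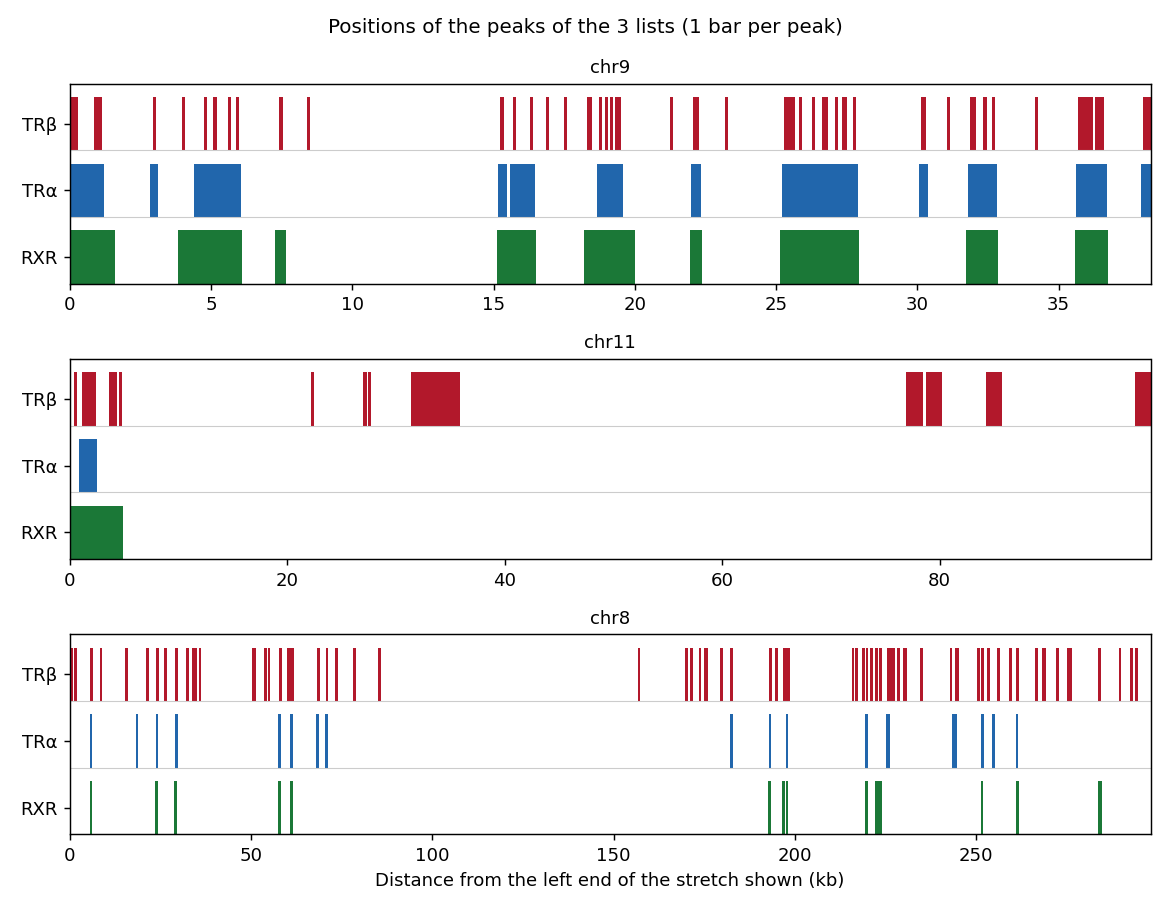
Positions of all peaks of the 3 lists in the densest stretches of the bins on chromosomes 9, 11 and 8, in kb from the left end of each stretch; each bar is 1 peak, and narrow peaks are drawn at a minimum width. On chromosome 9 rows of TRβ peaks lie over broad TRα and RXR peaks, on chromosome 11 the broad TRβ peaks from about 30 kb on have no TRα or RXR peak, and on chromosome 8 the peaks form clusters with a free stretch of 71.5 kb.

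Chromosome 11 held broad TRβ peaks without a partner. In its first 5 kb lay 4 TRβ peaks, all under the RXR peak of 656 tags and the one with 179 tags also under a TRα peak of 226 tags. Further along, TRβ had a 4583 bp peak from 3031343 to 3035925 with 852 tags, the most of any member, and peaks of 417, 396, 381, 327 and 136 tags between 3076891 and 3100169. None of these 6 peaks overlapped a TRα or RXR peak. Their folds were low, from 1.98 to 3.71, although the peak from 3097954 to 3099402 had the highest TRβ score of the bin, 192.62.

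From 3026922 to 3257018 on chromosome 11, 9 consecutive TRβ peaks, those 6 included, held 2592 tags, and in the same stretch TRα had 1 peak with 18 tags and RXR none. Because of this stretch the bin's TRβ peaks summed to 178.36 scaled tags, against 19.6 for TRα and 7.36 for RXR. With the RXR peak that begins just before 3 Mb counted in, the RXR sum was 48.3, and the ratio of TRβ to RXR fell from 24.2 to 3.69. The ratio of TRβ to TRα was 9.1 either way. Toward the other end of the bin, the highest-scoring members of TRα (3802588 to 3803571, 99 tags, fold 14.49) and RXR (3802472 to 3803755, 101 tags, fold 11.45) lay on one site that had no TRβ peak. The RXR peak that begins just before 3 Mb, which lies over TRβ peaks, scored higher than this RXR member, at 285.98 against 191.45.

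The chromosome 8 bin held the most peaks of each list, in clusters. A stretch of 71.5 kb, from 19786997 to 19858524, had no peak of any list. Before it lay 27 TRβ, 8 TRα and 5 RXR peaks, and after it 48, 9 and 9. The highest-scoring peak of each list fell on one site before the gap. There the TRβ peak from 19730927 to 19731096 had 16 tags and a fold of 25.51, the TRα peak 23 tags and a fold of 19.37, and the RXR peak 21 tags and a fold of 9.68.

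Elsewhere on chromosome 8, from 19918538 to 19946624, 17 TRβ peaks in a row each had a fold below the list's median of 10.96. Their median was 25 tags at a median fold of 7.03, while the other 58 TRβ peaks of the bin had a median of 9 tags at a fold of 14.01. Of these 17 peaks, 5 met a TRα peak and 3 an RXR peak, as did 14 and 13 of the other 58. Over the whole TRβ list the shares were 18.8% and 17.9%. Such a row of low folds, taken as the longest in each bin, was set beside the bin's other TRβ peaks. Its median of tags was the higher in all 7 bins, from 14 to 327 tags against 8.5 to 39. A peak of low fold needs more tags to pass the caller's limit on p, so picking rows by low fold largely fixed this order. The row had 10 peaks in the first bin of chromosome 1 and 10 on chromosome 9, and 2 to 9 in the other bins except that of chromosome 8.

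The bins of chromosome 1 differed in their strongest sites. In the second of them the top peak of every list was the same site: a TRβ peak from 87488336 to 87489993 with 204 tags, a TRα peak from 87487513 to 87490111 with 388 tags and an RXR peak from 87487505 to 87490745 with 289 tags. It was broad and of low fold in each list, at 3.73, 3.39 and 3.43. In the first bin the top TRβ peak (85162159 to 85162393, 17 tags, fold 16.23) met peaks of both other lists, while the top TRα peak (85093411 to 85094531, 50 tags) met TRβ peaks only. RXR had fewer peaks in that bin than the other lists, 5 with 105 tags, though the median autosomal bin held 2 RXR peaks. Its scaled tags there were 6.55, against 32.9 for TRβ and 21.4 for TRα.

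The bins of chromosome 5 are neighbours, and peaks of the 3 lists continued across their border. A stretch of 59.4 kb in the second bin, from 15053176 to 15112581, had no peak of any list. TRβ peaks with 30 or more tags were missing from both bins, and none had more than 21. The largest TRα peak held 63 tags and the largest RXR peak 53, against medians of 21 and 22 over these lists. The TRβ medians of 11 and 9 tags were above the list's 8. The highest-scoring TRβ peaks were short and of high fold. One, from 14933777 to 14933912, had 17 tags and a fold of 31.25 and met a TRα peak of 15 tags (14933733 to 14933992, fold 14.58). The other, from 15036485 to 15036592, had 15 tags and a fold of 33.48, the highest fold of the 243 TRβ members, and met no peak of either other list. The bin from 14 to 15 Mb was the only one of the 7 without a site shared by all 3 lists.

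**Figure D3:**
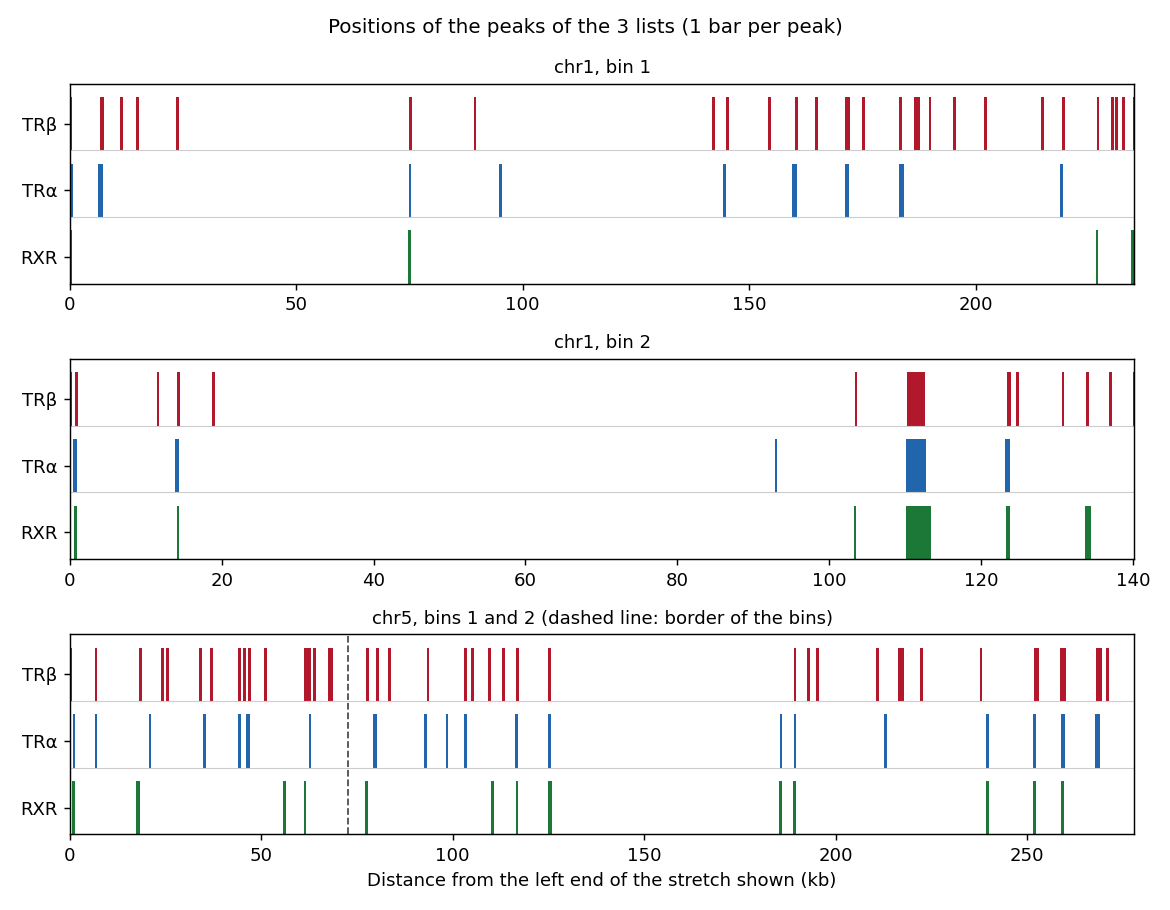
Positions of all peaks of the 3 lists in the densest stretches of the bins on chromosomes 1 and 5, in kb from the left end of each stretch; each bar is 1 peak, and narrow peaks are drawn at a minimum width. The broad site shared by the 3 lists in the second bin of chromosome 1 can be seen, as can the peaks on either side of the border of the chromosome 5 bins, with a free stretch of 59.4 kb in the second of these.

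Summed over the 7 bins, the peaks held 471.12 scaled tags for TRβ, 227.78 for TRα and 225.03 for RXR. These sums were 5.66%, 2.03% and 1.71% of all tags in peaks of each list, while the members were 2.42%, 1.14% and 0.82% of its peaks. TRβ peaks covered 55.5 kb, TRα peaks 59.2 kb and RXR peaks 48.4 kb. The ratio of summed scaled tags was 2.07 for TRβ to TRα and 2.09 for TRβ to RXR, whereas over the whole lists it was 0.742 and 0.631. The TRβ sum is taken over the peaks by whose number the bins were chosen. Its share and both ratios therefore follow in part from that choice.

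One bin decided much of this sum. Without chromosome 11 the ratios were 1.41 and 1.34, and without chromosome 9 they were 2.49 and 3.66. With the 3 peaks that begin just before 3 Mb counted in, they were 1.94 and 1.61. TRβ was below TRα and RXR in the second bin of chromosome 1, with 26.7 scaled tags against 34.1 and 33.1. On chromosome 5 TRβ and TRα were about even, with 14.4 and 14.6 in the first bin and 20.3 and 21.3 in the second, and RXR had 8.61 and 15.3. On chromosome 9 the sums were 134.39 for TRβ, 92.5 for TRα and 133.03 for RXR. With the peaks that begin just before 3 Mb counted in, TRα had 107.50 and RXR 159.17, so that TRβ was 1.25 times TRα and 0.844 times RXR. TRβ was above both in the first bin of chromosome 1 and on chromosomes 8 (64.1 against 24.4 and 21.02) and 11.

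A single TRβ member held more tags than a typical TRβ peak. The median was 12 tags (0.725 scaled) against 8 (0.483 scaled) over the list, and 30.04% of members had a score under 50, against 67.04% of the list. For TRα the median was 1.29 scaled tags against 1.06, and for RXR 1.43 against 1.37. The median was highest on chromosome 11 for TRβ (76 tags, from 7 to 852) and on chromosome 9 for TRα (87 tags, from 11 to 569) and RXR (203 tags, from 13 to 677). For TRβ the median was 33 tags on chromosome 9 and 9 to 12 in the bins of chromosomes 1, 5 and 8.

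The TRβ members were short. Their median length was 154 bp, against 168 bp over the list, and 81 of 243 (33.3%) were no longer than 112 bp, which is 2 times the modelled shift distance, against 7.66% of the list. This share was 52.2% on chromosome 9, 24 of 46 peaks, and 40% on chromosome 8, 30 of 75 peaks. The short peaks of chromosome 9 were not weak: they had a median of 30 tags. Chromosome 11 differed, with a median length of 716 bp and it held 6 of the 7 TRβ members longer than 1 kb. TRα members had a median of 551 bp against 559 bp, and RXR members 573 bp against 701.5 bp, with the longest median, 1144 bp, on chromosome 9.

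Folds and tags went apart in the bins, which were chosen as crowded, and whether crowding itself lowered the folds was not tested. Among peaks with 30 or more tags, TRβ members had a median fold of 8.48 (53 peaks), and the other autosomal TRβ peaks 13.01 (219 peaks). The same held for TRα, at 5.18 (35 peaks) against 10.02, and for RXR, at 4.58 (18 peaks) against 8.96. Among peaks with fewer tags the members were the higher in each list: 11.8 against 10.9 for TRβ, 8.3 against 7.19 for TRα and 7.84 against 7.18 for RXR. A fold under 4 was given for 8 TRβ members (3.29%, against 0.22% of the list), 6 of them on chromosome 11 and 2 in the second bin of chromosome 1.

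**Figure D4:**
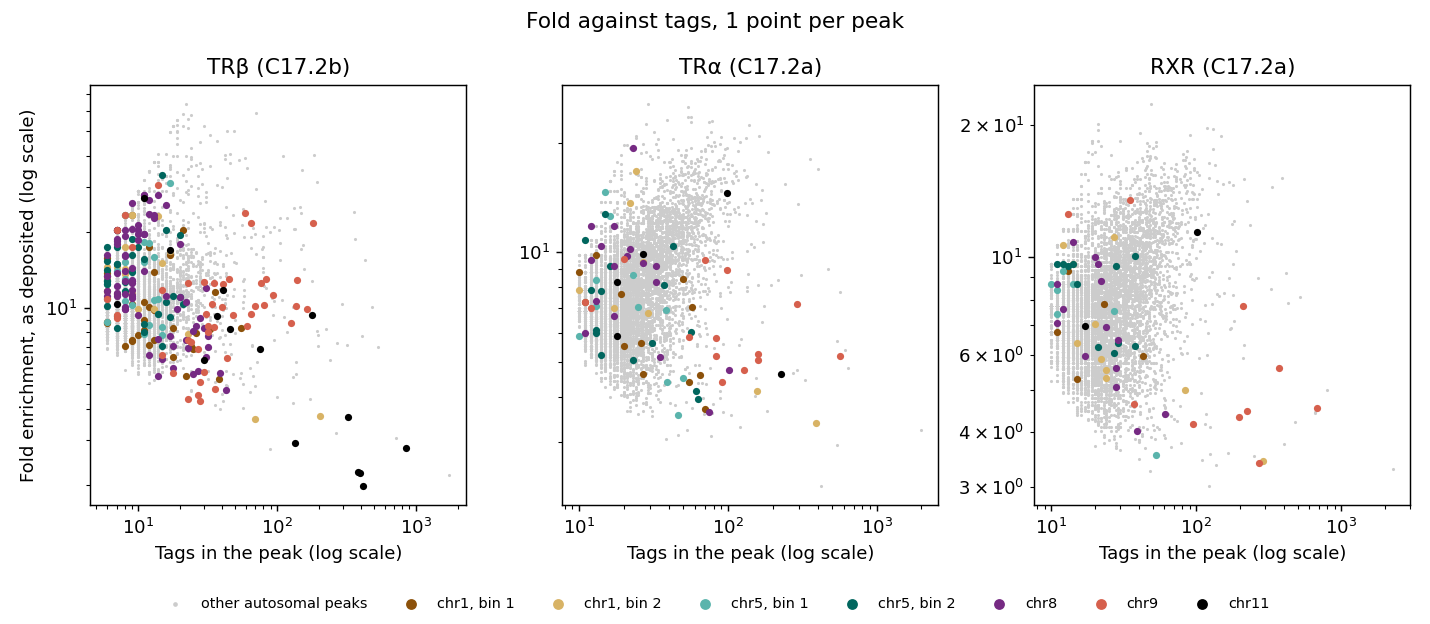
Fold enrichment against tags for every autosomal peak (log axes), 1 panel per list, with members coloured by bin and the other autosomal peaks in grey. Members with 30 or more tags lie toward low folds in each panel, with median folds of 8.48, 5.18 and 4.58 for TRβ, TRα and RXR, and the chromosome 11 TRβ peaks with the most tags lie at the lowest folds.

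Neighbouring TRβ members began a median of 2608 bp apart within a bin, TRα members 12659 bp and RXR members 13179 bp. Over the whole lists, where the spacing is that of the genome, the medians were 154.41, 168.76 and 174.69 kb. TRβ spacing was 833 bp on chromosome 9 and 2057 bp on chromosome 8, and 3930 to 4676 bp in the other bins. Another TRβ peak began within 10 kb of 224 of the 243 TRβ members (92.2%, against 15.5% of the list), which largely follows from the choice of crowded bins. A neighbour of their own list was found for 47 of 82 TRα members (57.3%, against 13.1%) and 36 of 59 RXR members (61.02%, against 11.2%). Whether these lists bore on the choice is not known.

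More members than other peaks met a peak of another list, by 1 bp or more. Among TRβ members 84 met a TRα peak (34.6%, interval 28.6 to 40.9%, against 18.8% of the list) and 73 an RXR peak (30.04%, 24.3 to 36.2%, against 17.9%). A further 141 met neither (58.02%, against 78.5%). Chromosome 9 carried part of this: without it the shares were 27.4% and 21.3%. When the overlap had to cover at least 50% of each peak, which short peaks in long partners can hardly reach, the shares fell to 5.76% with TRα (3.57% of the list) and 2.06% with RXR (1.29%). TRβ peaks that lie in a row under 1 broad peak share that partner and are not independent of each other.

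From the other side, 55 of 82 TRα members met a TRβ peak (67.1%, interval 55.8 to 77.1%, against 24.1% of the list) and 43 of 59 RXR members did (72.9%, 59.7 to 83.6%, against 22.6%). The bins hold many TRβ peaks by choice, so a TRα or RXR peak there had more of them to meet. Under the 50% rule the shares were 17.1% for TRα (4.99% of the list) and 8.47% for RXR (1.79%). Between TRα and RXR the overlap was closer to that of the lists. An RXR peak was met by 40 TRα members (48.8%, 37.6 to 60.1%, against 47.6%), and a TRα peak by 38 RXR members (64.4%, 50.9 to 76.4%, against 47.2%). Peaks that met neither other list were 19 for TRα (23.2%, against 47.8%) and 8 for RXR (13.6%, against 49.5%).

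**Figure D5:**
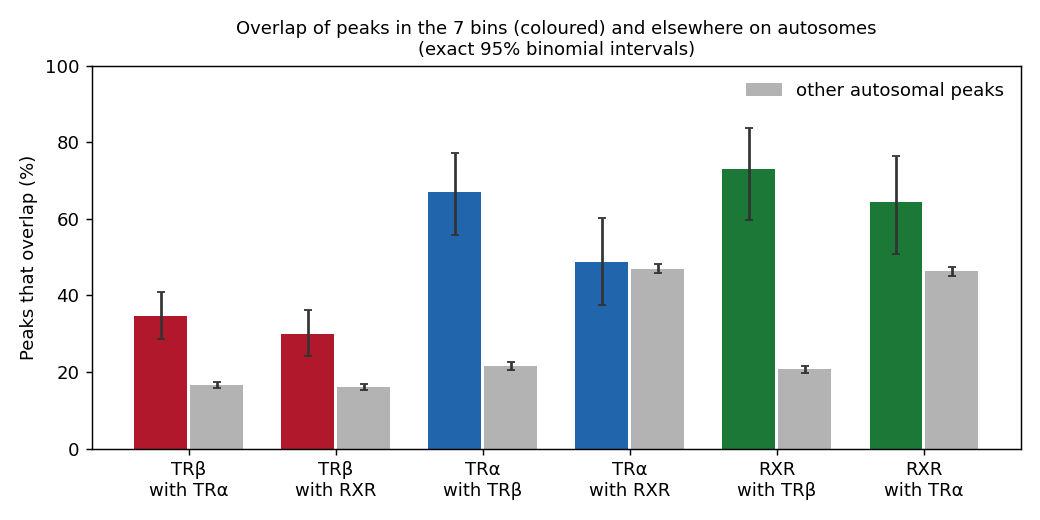
Share of peaks that overlap a peak of another list by 1 bp or more, for members of the 7 bins (coloured) and all other autosomal peaks (grey), with exact 95% binomial intervals. Members stand above the other peaks in 5 of the 6 pairings, while TRα with RXR lies at 48.8% against 46.99%.

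Scores bear on this comparison, since strong peaks of these lists overlap more often than weak ones. Among TRβ peaks with a score under 50, 16.4% of 73 members met a TRα peak (interval 8.79 to 26.95%), against 5.91% of the other autosomal TRβ peaks. At scores from 50 to 100 the shares were 30.6% of 121 members (22.5 to 39.6%) and 33.97%. At 100 or more the members' share was the lower: 71.4% of 49 members (56.7 to 83.4%) against 83.4% of 445 others. RXR gave the same order in the top class, 65.3% of the TRβ members (50.4 to 78.3%) against 81.1%. Of these 49 strong TRβ peaks 27 lay on chromosome 9, where 23 met a TRα peak, and 9 on chromosome 8, where 4 did.

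The TRα members were split by score in the same way. At scores of 100 or more, 15 of 20 TRα members met an RXR peak (75%, interval 50.9 to 91.3%), against 96.2% of the other autosomal TRα peaks of that class. For TRα with TRβ the share was 19 of 20 (95%, 75.1 to 99.9%) against 62.3%. In the lower classes 20.7% of TRα members met an RXR peak at scores under 50 and 57.6% from 50 to 100, against 17.1% and 59.3% of the others. From the side of RXR the members' share meeting TRα was the higher in each class: 35% against 19.9%, 75.8% against 61.5%, and 6 of 6 (100%) against 93.6% at 100 or more. These differences were not tested.

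After overlapping peaks were joined across lists, the bins held 244 sites. Of these 32 held peaks of all 3 lists (13.1%, against 7.41% of 18812 sites in the series). TRβ and TRα shared 23 (9.43%, against 1.73%), TRβ and RXR 13 (5.33%, against 1.25%), and TRα and RXR 8 (3.28%, against 10.6%). TRβ alone made up 141 sites (57.8%, against 41.8%), TRα alone 19 (7.79%, against 18.2%) and RXR alone 8 (3.28%, against 18.9%). The bins hold many TRβ peaks by choice, which bears on all these shares. By the sum of their ranks, the 10 foremost sites of all 3 lists were 7 on chromosome 9 and 1 each on chromosome 11, in the second bin of chromosome 1 and on chromosome 8. The third of these sites, on chromosome 9 from 3015124 to 3016505, held 8.88 scaled tags for TRβ, 8.54 for TRα and 13.04 for RXR.

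At sites where peaks of 2 lists overlapped, the median log2 ratio of scaled tags was nearer 0 in the bins than over the lists. It was 0.27 for TRα over TRβ at 55 pairs of members, against 0.88 at 1731 pairs of the whole lists. For RXR over TRβ it was 0.49 at 43 pairs against 1.27 at 1629. For TRα over RXR it was −0.18 at 40 pairs against −0.37 at 3417. The tags of paired peaks also ran in parallel: Spearman's rho was 0.82 for TRα with TRβ (0.58 over the lists), 0.83 for RXR with TRβ (0.55) and 0.91 for TRα with RXR (0.77). These are descriptions across sites that share 3 libraries and, in part, 1 stretch of chromosome 9. Choosing the bins by their number of TRβ peaks may bear on the values that involve TRβ. Summits lay a median of 7 bp apart for TRα and TRβ, 27 bp for RXR and TRβ and 7.5 bp for TRα and RXR, against 29, 33 and 25 bp over the lists. The share of pairs with summits within 100 bp was the lower in the bins, at 83.6% against 88.1%, 72.1% against 86.5% and 85% against 90.8% in the same order.

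Genes, repeats and sequence of the bins were not analysed here, since no annotation or genome of build mm9 was used.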

How the data were processed

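Peaks of 3 libraries from C17.2a and C17.2b cells, 1 per group, were compared. CASAVA 1.7, Bowtie 0.12.7 and build mm9 are named, per the submitters' processing notes; the MACS version and how reads with several matches were treated are not given in the sources used here. Per the file headers, the authors ran MACS separately on every library with no control file; the limit on the p-value was 0.0001, tags were 36 bp long, the fold for building the model was 5, the genome size was 2.7 Gb, and the band width was 500 bp in the ChAP libraries but 300 bp in the RXR library. The deposited lists give tags per peak as counts, a score, a scaled −log10 of p, and a fold enrichment, a ratio to the tags expected. No column of another sample was present.

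Starts of the RXR list count from 0 and were raised by 1. Tags were divided by the library's unique tags and multiplied by 1000000. Overlap was 1 bp or more, with a neighbour limit of 10 kb between starts; spacing was taken between neighbouring starts within a bin. Intervals are exact Poisson, exact binomial (Clopper-Pearson) or conditional binomial for ratios, and cover counting error only; PCR copies are not independent molecules. The scripts (Python 3.11.15, pandas 2.3.3, scipy 1.17.1) were tested on simulated peaks. Named were all 7 bins, the highest-scoring peak of each list per bin, and the 10 foremost sites of all 3 lists by rank sum, of which some are given as counts. The unchosen bins with the most TRβ peaks were named too, and further peaks were picked with their values known. The members, lists and measures were chosen with earlier results of these data known, and the 80% stretches, the rows of low fold, the score classes, the joining of peaks and the summed tag ratios after the data had been seen. Alternatives were a reciprocal overlap of 50%, centres within 1 kb, 500 bp windows at summits, lists cut to their better-scoring 50% or to equal length, bins by summit, other neighbour distances and each bin left out.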

Additional observations from a re-analysis of the deposited data

How the results depend on the processing

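Of 84 values recomputed under 9 alternative settings, 65 stayed within their interval or within 1.5 times the reported value, and 19 moved further. Reversals of direction were not looked for, and the cause of the moves was not tested. With the better-scoring 50% of each list, TRα had 48 members and RXR 37, the TRβ to TRα count ratio was 4.02, the median scaled tags were 0.906 for TRβ and 1.9 for TRα, 79.2% of TRα members met TRβ, and 45.9% of RXR members had a neighbour. Under a reciprocal overlap of 50%, which short TRβ peaks in long partners can hardly reach, 5.76% of TRβ members met TRα and 2.06% RXR, and 17.1% of TRα and 8.47% of RXR members met TRβ. With 500 bp windows 22.6% of TRβ members met RXR. A neighbour within 5 kb was found for 84.4% of TRβ, 35.4% of TRα and 33.9% of RXR members, and within 20 kb for 79.3% of TRα and 76.3% of RXR members. Joining peaks less than 1 kb apart gave count ratios of 2.06 and 2.93 to TRα and RXR. With each bin left out in turn, 5 of 175 values moved further: TRβ spacing ranged from 2202 to 3192 bp (highest without chromosome 8), the TRβ share meeting TRα from 27.4 to 38.7% and meeting RXR from 21.3 to 33.9% (lowest without chromosome 9), and the summed tag ratio of TRβ to RXR from 1.34 (without chromosome 11) to 3.66 (without chromosome 9). No paired analysis was possible because there was 1 library per group. The fewest tags in a peak were 6 for TRβ and 10 for TRα and RXR. These floors did not follow depth, at 16556350 unique tags for TRβ, 19786966 for TRα and 16033622 for RXR. What set them was not tested.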
